A study of Mus musculus with 2 samples.

Results

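The proteasome is the protease complex that degrades ubiquitin-tagged proteins in the cytosol and nucleus. Its genes were taken as every gene of the deposited table whose symbol starts with Psm, a letter from a to g and a digit. The rule matched 48 of 10982 genes. Of these, 47 encode proteasome subunits, regulators or assembly factors and are described here. The remaining one, Psmc3ip, encodes a cofactor of meiotic recombination and is no part of the complex. It had 15.8 FPKM in the antagomir library and 14.0 FPKM in the control library.

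RNA had been sequenced from cultures labelled mouse neonatal cardiomyocytes, which are beating heart muscle cells taken from newborn mice. There were 2 libraries, 1 per group. In the antagomir group, the piRNA FERPIR was knocked down with an antagomir, a chemically modified antisense oligonucleotide, and the control group received a negative control. Both samples also carry the treatment label PBS, and no strain or genotype is given. The comparison addressed how gene expression differed after FERPIR knockdown. Levels are in FPKM, fragment counts scaled to transcript length and library size, so they may be compared between genes. A log2 ratio is log2 of (antagomir FPKM + 1) over (control FPKM + 1), and a fold is taken on the same scale, which understates differences of low genes. With 1 library per group no test was possible, and every difference describes these 2 libraries only, with no replicate check. The number of reads is unknown, and the level of FERPIR itself was not analysed here.

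Over 10201 genes that reached 1 FPKM in the higher library, the median log2 ratio was -0.05 and the middle 50% lay between -0.36 and 0.29. Of 12 cardiomyocyte markers listed, 2 had values. Tnnt2 had 8.19 FPKM in the antagomir library and 1.48 FPKM in the control library, and Tnnc1 had 18.9 FPKM in the antagomir library and 4.39 FPKM in the control library. The other 10, among them Myh6, Actc1 and Ttn, had no value. Every gene with a value reached at least 0.50 FPKM in its higher library, and whether the missing markers lay below that level was not tested. Most defining genes of the labelled cell type were thus not seen in these data. Of 8 fibroblast markers, 6 had values, of which 3 were at least 1.5-fold lower, beside 13.4% of all genes, with summed levels of 341 FPKM in the antagomir library and 548 FPKM in the control library. Of 7 immune markers Lyz2 had a value, with 4.44 FPKM in the antagomir library and 3.28 FPKM in the control library, and none of 4 endothelial markers had one. The part of cell composition in the values below was not tested, and in bulk RNA fewer cells of a type and less RNA per cell cannot be told apart.

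The core particle of the proteasome is a barrel of 4 stacked rings, with outer rings of alpha subunits that gate the entrance and inner rings of beta subunits that hold the proteolytic sites. The regulatory particle caps the barrel. Its base holds a ring of ATPases that unfold substrates, and its lid removes ubiquitin. In immune cells and under interferon, other catalytic beta subunits replace the constitutive ones, giving the immunoproteasome. Heart muscle turns over its contractile and mitochondrial proteins partly by this route. In mammals, the transcription factor NRF1, encoded by Nfe2l1, raises proteasome gene expression when proteolysis is impaired, by binding antioxidant response elements in their promoters.

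The 250 bases before the start were therefore searched in RefSeq sequences of build GRCm38.p6, which held 40 of the 47 genes. Searched on both strands were the antioxidant response element core TGACNNNGC, the NF-Y box CCAAT and the interferon-stimulated element, taken as 2 GAAA words 2 bases apart. The first was found for 5 of the 40 genes, 12.5%, against 11.5% of all 27025 genes in the promoter table. Its 5 genes were Psmb5, Psmb6, Psmc6, Psmd9 and Psmd12, with log2 ratios of 0.92, 0.57, -0.03, 0.24 and 0.10. The second was found for 13 of 40 genes, 32.5%, against 37.5% of all genes, and for 5 of the 7 alpha ring genes. The third was found for 3 of 40 genes, Psmb3, Psmd4 and Psmd9, 7.5%, against 3.46% of all genes, and for none of the immunoproteasome genes. No window held both of the first 2 motifs. A match is a description of the letters and not a binding site. The promoters of the catalytic subunits Psmb5 and Psmb6 hold the antioxidant element and are shown. Psmb7, the other catalytic subunit, was not among the 40 genes searched. The promoters of Psma3 and Psma7, the alpha ring genes at least 1.5-fold higher that hold an NF-Y box, are shown for comparison. In the same ring Psma5, with the largest log2 ratio of 0.71, held no box, and Psma1, with the smallest of 0.09, held 2. Sequences run 5′ to 3′ on the strand of the gene, with the motif, on whichever strand it was found, in capitals. Psmb5 lies at chr14:54617996-54618245 on the minus strand, Psmb6 at chr11:70525107-70525356 on the plus strand, Psma3 at chr12:70974373-70974622 on the plus strand and Psma7 at chr2:180042465-180042714 on the minus strand, all as windows of the promoter.
Psmb5: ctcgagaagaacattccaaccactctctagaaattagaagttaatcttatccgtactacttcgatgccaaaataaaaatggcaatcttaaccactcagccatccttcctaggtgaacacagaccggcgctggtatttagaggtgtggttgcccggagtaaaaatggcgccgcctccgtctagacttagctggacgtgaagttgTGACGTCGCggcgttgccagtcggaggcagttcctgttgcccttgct
Psmb6: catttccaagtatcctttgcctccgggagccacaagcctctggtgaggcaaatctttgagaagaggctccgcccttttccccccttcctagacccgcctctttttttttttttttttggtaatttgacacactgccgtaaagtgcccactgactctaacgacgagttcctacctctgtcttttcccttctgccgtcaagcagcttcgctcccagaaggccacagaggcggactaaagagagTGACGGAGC
Psma3: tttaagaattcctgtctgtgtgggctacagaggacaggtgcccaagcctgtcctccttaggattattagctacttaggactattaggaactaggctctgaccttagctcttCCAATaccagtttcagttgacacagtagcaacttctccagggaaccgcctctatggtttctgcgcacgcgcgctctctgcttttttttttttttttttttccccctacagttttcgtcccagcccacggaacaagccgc
Psma7: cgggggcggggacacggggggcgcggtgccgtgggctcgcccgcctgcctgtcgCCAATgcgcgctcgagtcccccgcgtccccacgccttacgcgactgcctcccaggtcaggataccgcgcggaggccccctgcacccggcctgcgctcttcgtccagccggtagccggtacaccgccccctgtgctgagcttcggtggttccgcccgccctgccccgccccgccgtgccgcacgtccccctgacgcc
The element of Psmb5 ends 38 bases before the start and that of Psmb6 directly at it. The 2 NF-Y boxes shown lie further upstream, ending 134 bases before the start in Psma3 and 191 bases before it in Psma7. Promoters not shown did not all keep this order. An NF-Y box ended 3 bases before the start in Psmb9, and the antioxidant elements of Psmc6 and Psmd12 ended 218 and 238 bases before it.

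All 47 genes reached 1 FPKM in the higher library, and 35 had a log2 ratio above 0, or 74.5%, where 46% of all genes did. Psmb8 reached 1 FPKM only in the antagomir library, so its log2 ratio could only lie above 0. At least 1.5-fold higher in the antagomir library were 10 of 47, or 21.3%, beside 10.8% of all genes. None was at least 1.5-fold lower, beside 13.4% of all genes. At 2-fold, 2 were higher, Psmb10 and Psmd13, where 2.88% of all genes were, and none was lower, where 3.79% were. The median log2 ratio of the 47 genes was 0.23, against -0.05 for all genes. With the dependence on transcript length and GC content removed, 29 of 47 genes lay above 0, beside 45.6% of all genes. At least 1.5-fold higher were then 6, beside 7.82% of all genes, and 1 was at least 1.5-fold lower. The share of all genes that far lower was not taken for this setting. The median was then 0.06. Together the 47 genes took 1.28% of all FPKM in the antagomir library and 1.10% in the control library. The higher values were not spread evenly over the complex. All 14 genes of the alpha and constitutive beta rings lay above 0 (11 of 14 with the dependence on transcript length and GC content removed, where Psma1, Psma4 and Psmb2 lay below), whereas the genes of the regulatory particle lay on both sides of it.

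**Figure D1:**
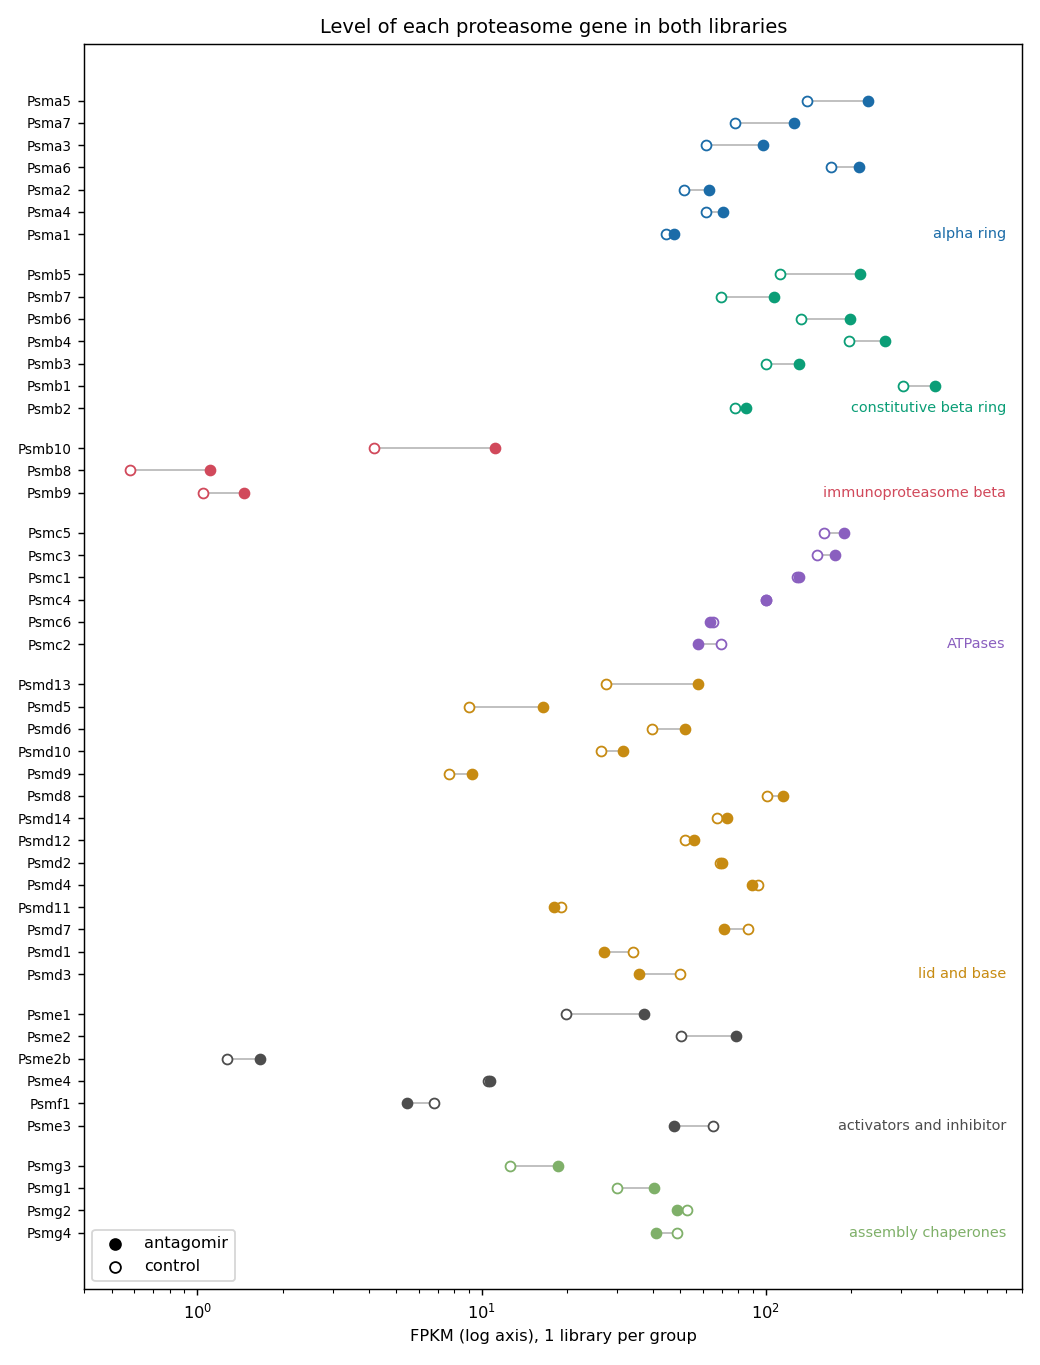
FPKM of each of the 47 proteasome genes on a log axis, grouped by role, with filled points for the antagomir library and open points for the control library (1 library each). Filled points lie right of open ones for all 14 genes of the alpha and constitutive beta rings (11 of 14 once length and GC content are accounted for), and the immunoproteasome genes are the group with the lowest levels.

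The 7 alpha ring genes had a median log2 ratio of 0.32. Of them, 3 were at least 1.5-fold higher, beside 10.8% of all genes, and none was lower, beside 13.4%. Psma5, on chromosome 3 from 108256926 to 108279974 (GRCm38), had 229 FPKM in the antagomir library and 139 FPKM in the control library, 1.64-fold higher. Psma7 had 126 FPKM in the antagomir library and 78.1 FPKM in the control library, a log2 ratio of 0.68. Psma3 had 97.4 FPKM in the antagomir library and 61.8 FPKM in the control library, 1.57-fold higher. These 3 stand apart from the other 4, which were between 1.07-fold and 1.25-fold higher, but Psma5 and Psma7 came to log2 ratios of 0.47 and 0.43, under the limit, with the length and GC dependence removed, and Psma3 to 0.57 as TPM, that is, with both libraries rescaled to the same total. Psma6 had 212 FPKM in the antagomir library and 169.8 FPKM in the control library, a log2 ratio of 0.32. Psma2 had 63.2 FPKM in the antagomir library and 51.6 FPKM in the control library, a log2 ratio of 0.29. Psma4, whose N-terminal tail is part of the gate in yeast, had 70.9 FPKM in the antagomir library and 61.6 FPKM in the control library, a log2 ratio of 0.20. Psma1 was the lowest of the ring in both libraries, with 47.4 FPKM in the antagomir library and 44.4 FPKM in the control library, a log2 ratio of 0.09. Every alpha ring gene was thus higher in the antagomir library, although the log2 ratios of Psma4 and Psma1 turned negative, to -0.057 and -0.16, with the length and GC dependence removed. Psma5 shares 64.0% of the 31-base words of its principal transcript with transcripts of other annotated genes, Psma4 38.9% and Psma3 27.1%, whereas Psma7 shares none. How the authors' counting split reads from shared sequence is unknown, so values of these genes are uncertain.

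The 7 constitutive beta ring genes had a median log2 ratio of 0.42. Of these, 2 were at least 1.5-fold higher, beside 10.8% of all genes, and none was lower, beside 13.4%. The 3 catalytic subunits were the highest of the ring in log2 ratio, and the 4 others lay below them, an order that changed with the length and GC dependence removed, when Psmb1 at 0.28 passed Psmb6 at 0.21. Psmb5, the chymotrypsin-like subunit, on chromosome 14 from 54614119 to 54618022, had 215 FPKM in the antagomir library and 113 FPKM in the control library, 1.90-fold higher. It was the core gene with the largest difference, except with the length and GC dependence removed, where Psma3 and Psmb7 exceeded it, and 96.2% of all genes had a lower log2 ratio as reported. Psmb7, the trypsin-like subunit, had 107 FPKM in the antagomir library and 69.6 FPKM in the control library, 1.53-fold higher, with a log2 ratio of 0.54 as TPM, under the limit. Psmb6, the caspase-like subunit, had 197 FPKM in the antagomir library and 133 FPKM in the control library, 1.48-fold higher and so just under the limit. The sum of these 3 was 519 FPKM in the antagomir library and 315 FPKM in the control library, a ratio of 1.65. The subunits without a proteolytic site had a summed ratio of 1.28. Among them Psmb1, the most abundant of all proteasome genes, had 393 FPKM in the antagomir library and 304 FPKM in the control library. Psmb4 had 262 FPKM in the antagomir library and 196 FPKM in the control library. Psmb3 had 131 FPKM in the antagomir library and 100.3 FPKM in the control library. These 3 lay close together, at 1.29-fold to 1.34-fold higher. Psmb2 had 85.3 FPKM in the antagomir library and 78.1 FPKM in the control library, 1.09-fold higher. With the length and GC dependence removed, its log2 ratio was -0.28, and that of Psmb5 was 0.48, under the limit. Psmb5 shares 74.0% of its 31-base words with other genes, among them its pseudogene, and Psmb3 66.8%, whereas Psmb2 and Psmb4 share none. Exons of Psmb7 overlap those of Nek6, which had 2.92 FPKM in the antagomir library and 2.30 FPKM in the control library.

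**Figure D2:**
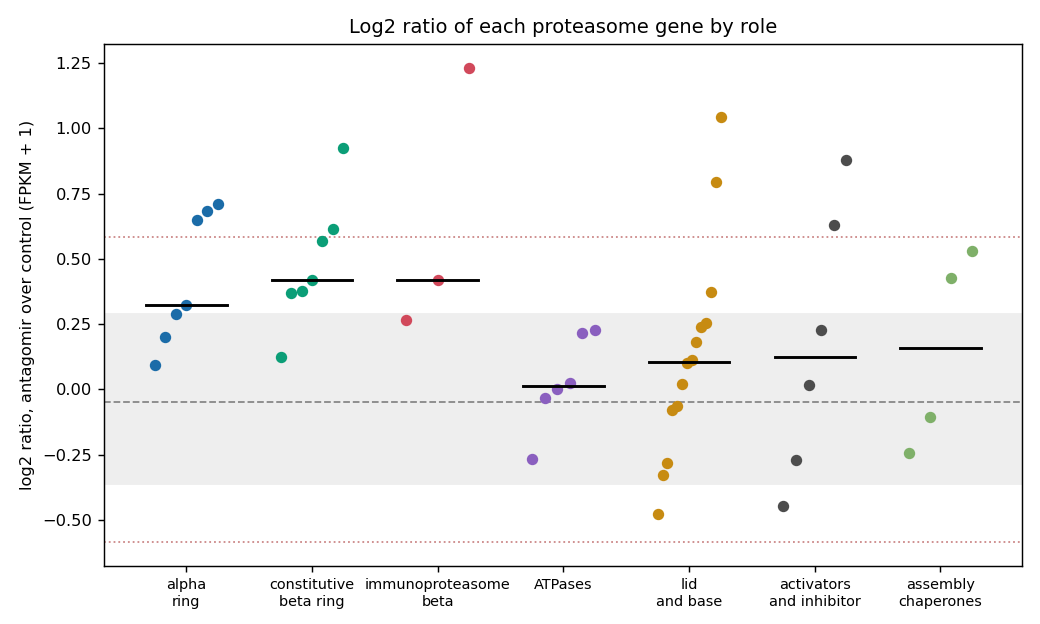
Log2 ratio of each of the 47 genes by role (points) with group medians (black bars), the median of 10201 genes (dashed line), their middle 50% (grey band) and the 1.5-fold limits (dotted lines). The medians of the alpha ring (0.32) and constitutive beta ring (0.42) lie above the band, and that of the ATPases (0.01) lies inside it.

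The immunoproteasome genes were expressed at low levels in both libraries. Psmb10, the counterpart of Psmb7, lies on chromosome 8 from 105935735 to 105938444. Its level was 11.2 FPKM in the antagomir library and 4.17 FPKM in the control library. At 2.35-fold higher it had the largest log2 ratio of the 47 genes, 1.23, and it shares no 31-base word and no exon with another gene. Psmb8, the counterpart of Psmb5, had 1.11 FPKM in the antagomir library and 0.58 FPKM in the control library. Psmb9, the counterpart of Psmb6, had 1.46 FPKM in the antagomir library and 1.04 FPKM in the control library, and its exons overlap those of Tap1. Their log2 ratios of 0.42 and 0.26 rest on levels near 1 FPKM, and that of Psmb8 was 0.84 with a pseudocount of 0.1 FPKM. Within each pair of counterparts the constitutive gene held most of the FPKM. Psmb10 made up 9.44% of its pair with Psmb7 in the antagomir library and 5.66% in the control library. The share of Psmb8 in its pair was 0.515% in the antagomir library and 0.510% in the control library, and that of Psmb9 was 0.733% in the antagomir library and 0.781% in the control library. The shares in these 2 pairs thus differed little between the libraries, unlike that of Psmb10. Genes of class I antigen processing, which interferon induces together with these subunits, were set beside them. Of 9 that reached 1 FPKM, 1 was at least 1.5-fold higher, beside 10.8% of all genes, and 1 was at least 1.5-fold lower, beside 13.4% of all genes. The median log2 ratio was -0.17, and 2 of the 9 lay above 0, where 46% of all genes did. Irf1, a transcription factor of this response, had 7.64 FPKM in the antagomir library and 3.81 FPKM in the control library. Nlrc5, the transactivator of class I genes, had 0.52 FPKM in the antagomir library and 1.498 FPKM in the control library. It is the lower gene of the count and reached 1 FPKM only in the control library, so the minimum fixed its direction. The class I light chain gene B2m had 613 FPKM in the antagomir library and 689.7 FPKM in the control library, and Tap1, at 0.65 FPKM in the antagomir library and 0.74 FPKM in the control library, stayed under 1 FPKM.

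The 6 ATPase genes, whose products form the unfolding ring of the base, lay close to each other and to 0. Their median log2 ratio was 0.01, and none was 1.5-fold higher or lower, beside 10.8% and 13.4% of all genes. Psmc5 was the highest at 188 FPKM in the antagomir library and 160.2 FPKM in the control library, a log2 ratio of 0.23. Psmc3 had 176 FPKM in the antagomir library and 151 FPKM in the control library, a log2 ratio of 0.22, with exons that overlap those of Slc39a13. Psmc1, which shares 39.7% of its 31-base words with other genes, had 131 FPKM in the antagomir library and 129 FPKM in the control library. The gene with the smallest difference of all 47 was Psmc4, with 100.07 FPKM in the antagomir library and 100.08 FPKM in the control library. Psmc6 had 63.8 FPKM in the antagomir library and 65.2 FPKM in the control library. Psmc2 was the one furthest below 0, with 57.7 FPKM in the antagomir library and 69.5 FPKM in the control library, a log2 ratio of -0.27. The sum over the ring was 716 FPKM in the antagomir library and 675 FPKM in the control library, a ratio of 1.06. The sign of the ATPase median depended on the scaling, since it was -0.069 as TPM and -0.12 with the length and GC dependence removed.

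The 3 further subunits of the base showed a median log2 ratio of -0.065. Psmd2, a scaffold that binds ubiquitin-like domains, had 70.0 FPKM in the antagomir library and 68.95 FPKM in the control library, and it shares 45.3% of its words with other genes. Psmd4, a ubiquitin receptor, had 89.6 FPKM in the antagomir library and 93.8 FPKM in the control library. Psmd1, the largest scaffold subunit, had 26.9 FPKM in the antagomir library and 34.1 FPKM in the control library, a log2 ratio of -0.33. None of these differed by 1.5-fold. Adrm1, a ubiquitin receptor that docks on Psmd1 and is not matched by the naming rule, had 21.8 FPKM in the antagomir library and 30.7 FPKM in the control library, a log2 ratio of -0.47.

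Among the 8 lid genes of the rule the median log2 ratio was 0.11, with the highest at 1.04 and the lowest at -0.48. Psmd13, on chromosome 7 from 140881968 to 140898643, had 57.6 FPKM in the antagomir library and 27.5 FPKM in the control library, 2.06-fold higher. Its exons overlap those of Sirt3, which was lower in the antagomir library, at 1.14 FPKM, than in the control library, at 1.77 FPKM. Among the regulatory particle genes of the rule Psmd13 was the single one past the 1.5-fold limit, with a log2 ratio of 0.92 once the length and GC dependence was removed. Psmd6 had 51.9 FPKM in the antagomir library and 39.8 FPKM in the control library, a log2 ratio of 0.37. Psmd8 had 115 FPKM in the antagomir library and 101 FPKM in the control library, and Psmd12 had 55.8 FPKM in the antagomir library and 52.0 FPKM in the control library. Psmd14, the deubiquitinase that cuts ubiquitin chains from substrates, had 73.1 FPKM in the antagomir library and 67.6 FPKM in the control library, a log2 ratio of 0.11. The remaining 3 lid genes lay below 0. Psmd11 had 17.9 FPKM in the antagomir library and 19.0 FPKM in the control library and was the least abundant regulatory particle gene in both. Psmd7, the partner of Psmd14, had 71.0 FPKM in the antagomir library and 86.5 FPKM in the control library, a log2 ratio of -0.28. Psmd3 had the lowest log2 ratio of all 47 genes, with 35.7 FPKM in the antagomir library and 50.05 FPKM in the control library, 1.39-fold lower, and its log2 ratio was -0.61 with the dependence on the length and GC content of principal transcripts removed, where Psmg4 at -0.86 was lower. Sem1, which encodes the smallest lid subunit and has a different name, had 142 FPKM in the antagomir library and 54.5 FPKM in the control library. At 2.58-fold higher it exceeded every gene of the rule, and its rank in level among the regulatory particle genes was 3 in the antagomir library and 12 in the control library.

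Seen by subcomplex, the core particle genes were higher in the antagomir library (11 of 14 with the length and GC dependence removed). The regulatory particle genes of the rule ranged from -0.48 for Psmd3 to 1.04 for Psmd13 in log2 ratio, around a median near 0. Sem1 and Adrm1, regulatory subunits outside the rule, had log2 ratios of 1.37 and -0.47. Both are left out of the medians, counts and sums given here. The median log2 ratio was 0.40 over the 14 core genes and 0.02 over the 17 regulatory particle genes of the rule. All 14 core genes lay above the regulatory median, and 1 of 17 regulatory genes, Psmd13, lay above the core median. Of the 17 regulatory genes, 7 lay above the lowest core gene, and with the length and GC dependence removed Psma1 and Psmb2 lay below the regulatory median. The core genes summed to 2236 FPKM in the antagomir library and 1600.1 FPKM in the control library, a ratio of 1.40. The regulatory genes summed to 1381 FPKM in the antagomir library and 1315.5 FPKM in the control library, a ratio of 1.05. The ratio of the core sum to the regulatory sum was accordingly 1.62 in the antagomir library and 1.22 in the control library. With the length and GC dependence removed, the medians were 0.25 for the core and -0.07 for the regulatory particle. Levels within one complex were far from equal although each subunit is present once per ring or cap. Core genes spanned 8.30-fold in the antagomir library and 6.85-fold in the control library, with Psmb1 at the top and Psma1 at the bottom in both.

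**Figure D3:**
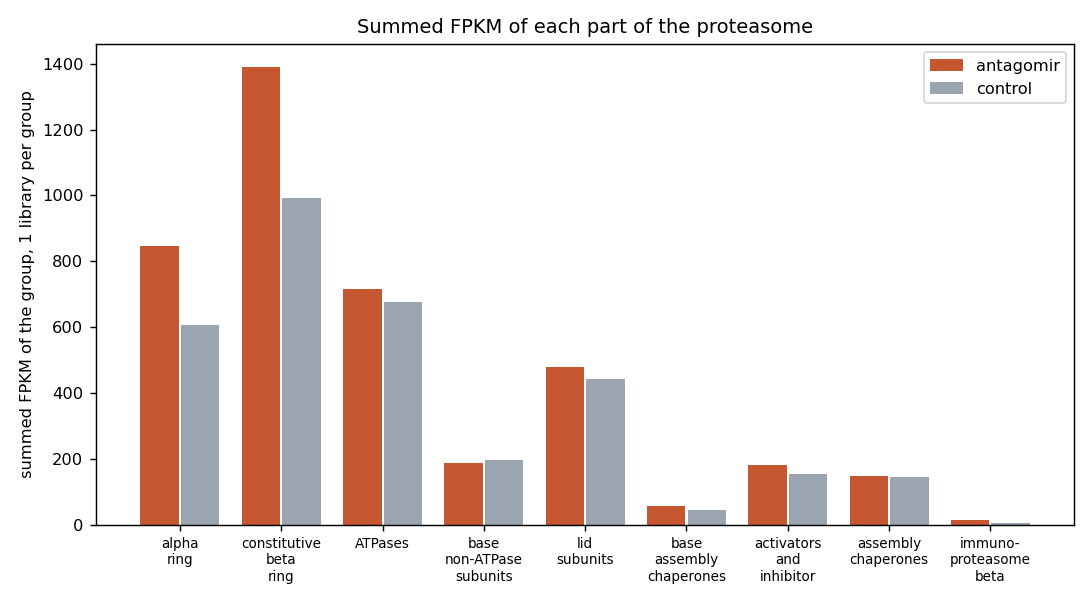
Summed FPKM of the genes of the rule in each part of the proteasome, in the antagomir library (left bars) and the control library (right bars), 1 library each. The alpha ring sums to 846 FPKM in the antagomir library and 607 FPKM in the control library, the constitutive beta ring to 1390.4 FPKM in the antagomir library and 993 FPKM in the control library, and the ATPases differ little.

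The activators open the core particle in place of the regulatory particle. Both genes of the cytosolic activator PA28, which interferon induces, were at least 1.5-fold higher, beside 10.8% of all genes. Psme1, on chromosome 14 from 55578123 to 55581529, had 37.2 FPKM in the antagomir library and 19.8 FPKM in the control library, 1.84-fold higher. Psme2 had 78.5 FPKM in the antagomir library and 50.4 FPKM in the control library, 1.55-fold higher, with a log2 ratio of 0.56 as TPM and 0.26 with the length and GC dependence removed, both under the limit. Neither is free of shared sequence. Psme1 shares 22.1% of its 31-base words with other genes. Its exons also overlap those of Emc9, with 5.45 FPKM in the antagomir library and 2.88 FPKM in the control library. Psme2 shares 66.2% of its 31-base words with other genes, chiefly its copy Psme2b, which had 1.66 FPKM in the antagomir library and 1.28 FPKM in the control library. The remaining 3 genes lay near or below 0. Psme3, the nuclear relative of PA28, had 47.4 FPKM in the antagomir library and 65.0 FPKM in the control library, a log2 ratio of -0.45. Psme4, the large nuclear activator, had 10.7 FPKM in the antagomir library and 10.6 FPKM in the control library. Psmf1, which encodes the regulator PI31, first described as an inhibitor, had 5.47 FPKM in the antagomir library and 6.80 FPKM in the control library, a log2 ratio of -0.27. Over all 6 genes the median log2 ratio was 0.12, but it was -0.13 without the genes whose exons overlap another gene.

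Assembly of the complex needs chaperones that leave the finished particle. Of the 4 Psmg genes, whose products guide the alpha ring, none was 1.5-fold higher or lower, beside 10.8% and 13.4% of all genes. The median log2 ratio was 0.16, and -0.11 with the length and GC dependence removed. Psmg3 had 18.6 FPKM in the antagomir library and 12.6 FPKM in the control library, a log2 ratio of 0.53. Psmg1 had 40.4 FPKM in the antagomir library and 29.9 FPKM in the control library, a log2 ratio of 0.43. With the length and GC dependence removed, Psmg3 and Psmg1 came to 0.49 and 0.10, and over principal transcripts to 0.12 and 0.14. Exons of Psmg3 overlap those of Gm26938. Psmg1 works as a dimer with Psmg2, and Psmg3 with Psmg4, and these partners lay on the other side of 0. Psmg2 had 48.9 FPKM in the antagomir library and 52.7 FPKM in the control library, a log2 ratio of -0.11. Psmg4 had 41.1 FPKM in the antagomir library and 48.8 FPKM in the control library, a log2 ratio of -0.24. This last gene has the shortest transcript of the 47, at 555 nucleotides, and its log2 ratio was -0.90 with the length and GC dependence removed. Among the 3 Psmd genes that assist assembly of the base, Psmd5 had 16.4 FPKM in the antagomir library and 9.04 FPKM in the control library, 1.73-fold higher. Psmd10, also called gankyrin, had 31.5 FPKM in the antagomir library and 26.3 FPKM in the control library, a log2 ratio of 0.25. Psmd9 had 9.23 FPKM in the antagomir library and 7.67 FPKM in the control library, a log2 ratio of 0.24. All 3 were higher in the antagomir library, Psmd5 past the limit. Pomp, the chaperone of beta ring assembly, had 33.6 FPKM in the antagomir library and 23.7 FPKM in the control library, a log2 ratio of 0.49.

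A list of genes that work with the proteasome was set beside these. Of 33 listed symbols, which include alternative names, 29 had values, and 8 of these had log2 ratios above 0, where 46% of all genes did. At least 1.5-fold higher were 2, Sem1 and Rps27a, beside 10.8% of all genes, and at least 1.5-fold lower were 5, a share near the 13.4% of all genes. The median log2 ratio was -0.27, against -0.05 for all genes. Ubb, which encodes a chain of linked ubiquitin units, had 463 FPKM in the antagomir library and 697 FPKM in the control library, a log2 ratio of -0.59. Rps27a, which encodes ubiquitin fused to a ribosomal protein, did not share this direction. It had 578 FPKM in the antagomir library and 332 FPKM in the control library, 1.74-fold higher, with a log2 ratio of 0.45, under the limit, once the length and GC dependence was removed. How reads from ubiquitin sequence common to several genes were split is unknown. The ubiquitin-activating enzyme gene Uba1 had 44.4 FPKM in the antagomir library and 53.7 FPKM in the control library. Shuttle factors bring ubiquitinated proteins to the complex, and the 4 described here were lower in every scaling tried. Ubqln2 had 14.9 FPKM in the antagomir library and 23.7 FPKM in the control library, 1.55-fold lower, and Ubqln1, Ubqln4 and Rad23b had log2 ratios of -0.56, -0.33 and -0.27. Akirin2, which carries proteasomes into the nucleus, had 22.8 FPKM in the antagomir library and 40.5 FPKM in the control library, 1.74-fold lower. The transcription factor gene Nfe2l1 had 17.2 FPKM in the antagomir library and 18.5 FPKM in the control library, a log2 ratio of -0.11. Ddi2 and Ngly1, whose products process that factor, had log2 ratios of -0.11 and 0.23 at levels under 5 FPKM. Nfe2l2, which encodes NRF2, had 43.2 FPKM in the antagomir library and 73.0 FPKM in the control library, 1.67-fold lower.

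**Figure D4:**
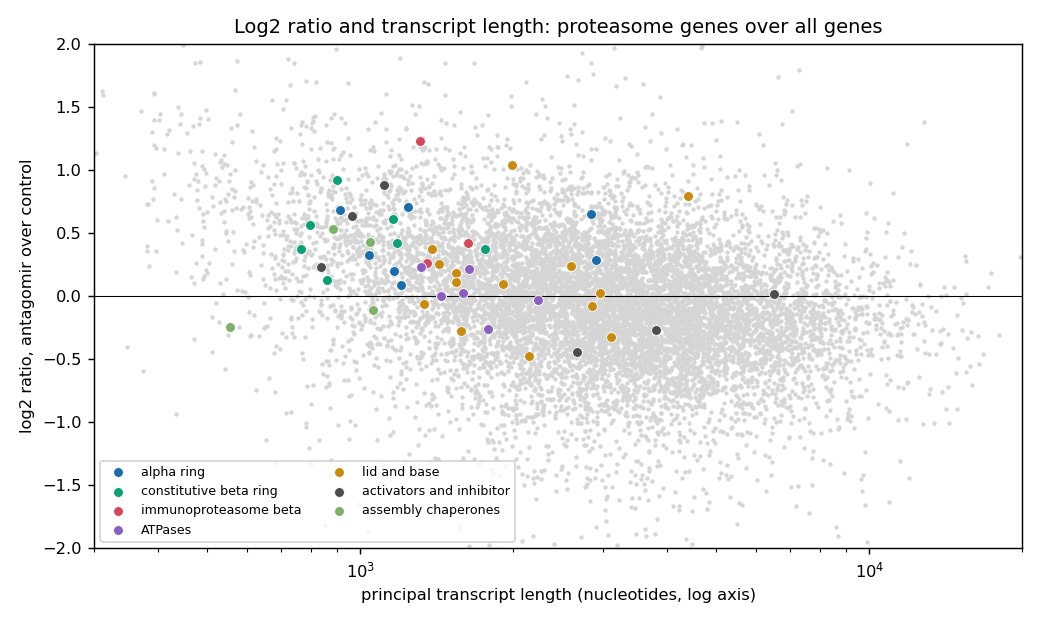
Log2 ratio, antagomir over control, against the length of the principal transcript on a log axis for the 47 proteasome genes (coloured by role) and all genes with a length (grey, cut at ±2 on the vertical axis). Genes with shorter transcripts tend to lie higher (Spearman's rho of -0.31 over all genes), with wide scatter. Most core genes are on the short side, with a median length of 1162.5 nucleotides against 1636 for the regulatory particle.

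Transcript length moved with the log2 ratio across all genes, with Spearman's rho of -0.31 over principal transcripts, and across the 47 proteasome genes, with rho of -0.37. These are correlations across genes of the same 2 libraries, which are not independent replicates. Core genes had shorter transcripts than regulatory particle genes, with median lengths of 1162.5 and 1636 nucleotides, beside 2926 nucleotides for all genes. With the trend over length and GC content of the longest transcripts removed, 6 of the 47 genes were at least 1.5-fold higher, beside 7.82% of all genes. These were Psmb10, Psmd13, Psmd5, Psme1, Psma3 and Psmb7. The median of the 47 genes was then 0.06, and 11 of the 14 core genes stayed above 0, Psma1, Psma4 and Psmb2 being below. The part of transcript length in the difference between core and regulatory genes was not tested further. With principal transcripts, 5 genes were past the limit, Psmb7 no longer among them, beside 7.65% of all genes, and 10 of the 14 core genes were above 0, Psmb3 also being below. The 12 genes that share over 20% of their 31-base words with other genes include Psmd11 and Psmg3 beside those named above. Leaving out these 12 left 5 genes past the limit, beside 10.8% of all genes, and a median of 0.22. The 5 were Psma7, Psmb7, Psmb10, Psmd5 and Psmd13. Exons of 14 of the 47 genes overlap those of another annotated gene, among them those of Psma5, Psmb5, Psmb7, Psmd13 and Psme1. Without these 14 genes the median was 0.13, and 5 genes were past the limit, beside the same 10.8%. That share is over all genes, with neither omission applied to them. These 5 were Psma3, Psma7, Psmb10, Psmd5 and Psme2.

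**Figure D5:**
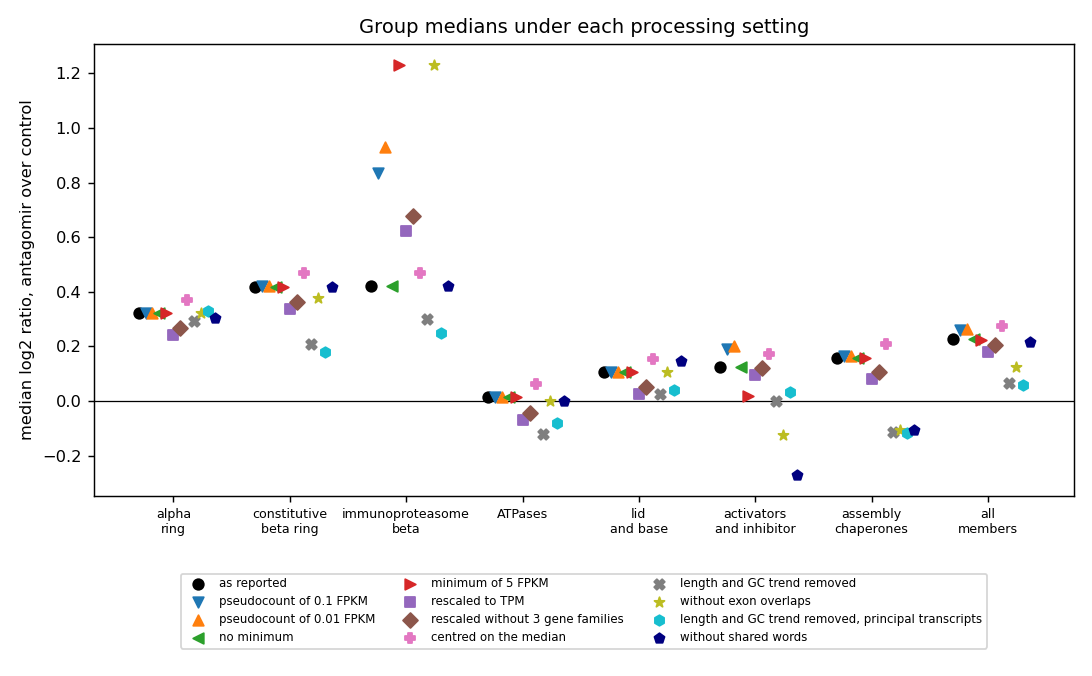
Median log2 ratio, antagomir over control, of each role group and of all 47 genes (8 columns) as reported (black circles) and under each alternative setting (other symbols). The medians of both rings, the immunoproteasome, lid and base, and all members stay above 0 in every setting shown. Those of the ATPases, the activators and inhibitor, and the assembly chaperones cross it.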

How the data were processed

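RNA was measured in 2 libraries, 1 per group, grouped by sample title. Per the labels' protocols, TRIzol extraction was followed by poly(A) selection and a KAPA stranded library kit, but the same text also lists 3′ and 5′ adaptor ligation, so the library type behind the values is not certain. The authors deposited FPKM per gene. The submitters' processing notes name cutadapt, HISAT2, StringTie 1.3.3 and GRCm38, in no stated order. Trimming, alignment and strand settings and the annotation were not given in the sources used here. The table had 10992 lines, summing to 312806 FPKM in the antagomir library and 295404 FPKM in the control library. Values of 10 repeated symbols were summed. Low FPKM values multiplied by transcript length held no steps of whole reads: at best 12.0% of values in either library came within 0.05 of a whole number, where 10% do so by construction. Depth, and with it any counting interval, is therefore unknown.

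Log2 ratios used a pseudocount of 1 FPKM. Fold limits of 1.5 and 2 were applied to genes with at least 1 FPKM in either library. Lengths, GC content and exon overlaps came from GENCODE M21 on the same build, and coordinates from the deposited table. Shared sequence was counted as 31-base words. The length and GC dependence was a least-squares fit with squared terms over all genes. Named were all genes of the rule, with full values for catalytic subunits, group extremes and genes past 1.5-fold, and members of the lists, a few of which are not reported here. Members and lists were chosen with earlier results of these data known. Scripts ran in Python 3.11.15, pandas 2.3.3 and numpy 2.4.6 and were tested on simulated data.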

Additional observations from a re-analysis of the deposited data

How the results depend on the processing

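No paired analysis was possible because each group had 1 library, and no replicate could be left out. Of 12 alternatives, 2 were chosen after seeing the data, the dependence over principal transcripts and the omission of genes with shared words. The median of all 47 genes, which the 2-fold limit does not bear on, stayed above 0 in the other 11, between 0.06 and 0.28, and no gene past 1.5-fold changed sign. With the length and GC dependence removed, genes at least 1.5-fold higher were 6 in all, 1 in the alpha ring, 1 in the constitutive beta ring and 1 among the activators and inhibitor, genes at least 1.5-fold lower were 1 in all and 1 among the assembly chaperones, and the medians were -0.12 for the ATPases and -0.11 for the assembly chaperones. Over principal transcripts the higher genes were 5 in all, 1 in the alpha ring, 0 in the constitutive beta ring and 1 among the activators, the lower genes were 2 in all, 1 in lid and base and 1 among the assembly chaperones, and these medians were -0.082 and -0.12. Without genes whose exons overlap another gene the higher genes were 5 in all, 0 in the constitutive beta ring, 1 in lid and base and 1 among the activators. The immunoproteasome median was then 1.23, the value of Psmb10 alone. The other medians were -0.00011 for the ATPases, -0.13 for the activators and inhibitor and -0.11 for the assembly chaperones. Without genes with shared words the higher genes were 5 in all, 1 in each ring and 0 among the activators, and the last 3 medians were -0.00011, -0.27 and -0.11. As TPM, and after rescaling without mitochondrial, hemoglobin and ribosomal protein genes, the higher genes were 1 in the constitutive beta ring, 2 in the immunoproteasome and 1 among the activators, with ATPase medians of -0.069 and -0.043. Pseudocounts of 0.1 and 0.01 FPKM gave 2 higher immunoproteasome genes. A minimum of 5 FPKM gave an immunoproteasome median of 1.23, again that of Psmb10 alone. At 2-fold the higher genes were 2 in all, 1 in lid and base, and 0 in each ring and among the activators, beside 2.88% of all genes. With the length and GC dependence removed, the share of higher genes over all genes was 7.82%, and 7.65% over principal transcripts. No share over all genes was taken for the lower genes there, or for the remaining alternatives, so those counts have no share to compare with. Where genes are left out or the limit is higher, fewer genes can be counted. Both rescalings raised the library totals while the pseudocount stayed at 1, so it weighed less on low genes such as Psmb8. For the other changes the cause was not tested. Unknown depth limits the low genes Psmb8, Psmb9 and Psme2b most.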
